A study of Homo sapiens with 23 samples.

Results

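The RNA of untransformed MCF10A-ER-Src cells with reduced STAT3 was compared with that of cells carrying a control siRNA, 24 h after addition of the ethanol vehicle (EtOH). MCF10A-ER-Src is an immortal human breast epithelial line that carries a fusion of the Src oncoprotein to a part of the estrogen receptor. The series used tamoxifen (TAM) to switch the fusion on, which transforms the cells, and it asked which genes depend on STAT3 during this process. The comparison here holds the 6 of 23 arrays whose labels name EtOH and 24 h, 3 with a pool of siRNAs against STAT3 (siSTAT3) and 3 with a non-targeting pool (siNEG in the labels, siSCM in the study). All 6 come from the same line and therefore all carry the uninduced ER-Src fusion, and none received TAM. Each siRNA pool was used at 25 nM, the cells grew for 48 h before the vehicle was added, and the medium held serum, EGF at 20 ng/ml, hydrocortisone at 0.5 µg/ml, cholera toxin and insulin. The labels number 3 replicates per group and do not say whether these came from separate cultures, while the study's methods speak of biological replicates. The p-values measure the spread between arrays of the same group, pooled over all 23 arrays, and this spread may in part be technical. No members were chosen from measured values: all genes on the array were compared.

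STAT3 is a transcription factor that waits in the cytoplasm until receptors of the IL6 family activate JAK kinases, which phosphorylate it on a tyrosine. It then forms dimers, enters the nucleus and binds DNA at short palindromic sequences. In epithelium STAT3 is known for driving acute-phase, inflammatory and survival genes, and for switching on SOCS3, the inhibitor that ends its own activation.

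On the arrays each probe set gave a MAS5 signal, a linear intensity that the authors' software had scaled per array and which is given here in units. A gene was represented by its brightest probe set, and 19775 genes were measured. A gene was called higher or lower when the Benjamini-Hochberg adjusted p of limma's moderated test, over all 54675 probe sets and with the spread estimated from all 23 arrays, was under 0.05. Differences are siSTAT3 minus siNEG on the log2 scale with a standard error (SE), and ± gives the SD of signals with n = 3 arrays per group. The 6 arrays were alike in quality: their median signal lay between 76.2 and 84.8 units, 45.3% to 46.9% of probe sets exceeded 100 units, and the ratio of 3′ to 5′ signal was 1.30 to 1.34 for ACTB and 0.910 to 0.961 for GAPDH. Basal markers were bright in both groups, with the keratin KRT5 at 17560 and 14880 units and SFN at 22920 and 21250 units in siNEG and siSTAT3 cells.

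The siRNA target itself was strongly reduced. Its brightest probe set read 4303, 4104 and 3968 units on the siNEG arrays and 495, 375 and 326 units on the siSTAT3 arrays. The groups were far apart, and replicate 1 of the siSTAT3 cells kept the most STAT3 RNA. The mean fell from 4125 ± 168 to 398 ± 87.1 units, a log2 difference of -3.39 (SE 0.13, adjusted p = 1.019e-09), which left 9.52% of the control signal. In other probe sets for STAT3, 13.3% and 11.1% were left. Another was near the low end of the scale in both groups (98.1 ± 9.92 and 91.4 ± 11.3 units) and gave a log2 difference of -0.10 (adjusted p = 0.899).

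**Figure D1:**
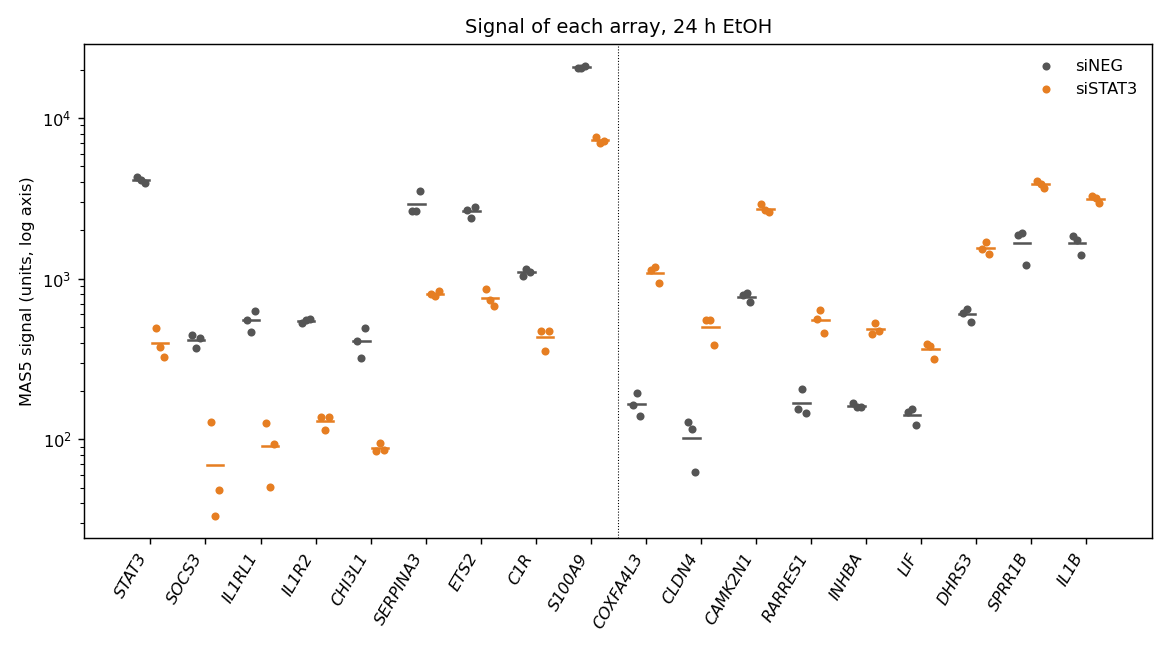
MAS5 signal of each array (units, log axis) for STAT3 and 8 other genes that were lower (left of the dotted line) and 9 that were higher (right) in siSTAT3 cells, 24 h EtOH. Points are the 3 arrays of a group in order of replicate number and bars are means. The groups do not overlap in any of these genes, as in every called gene, and the siSTAT3 points of STAT3 lie between 326 and 495 units.

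In all, 277 genes (1.4% of those measured) were called higher and 289 (1.46%), STAT3 included, lower, 566 (2.86%) in either direction. The changes were mostly small. The median called gene moved 1.52-fold up or 1.48-fold down, 54 rose and 55 fell by at least 2-fold, and 8 rose and 10 fell by at least 4-fold. At the level of probe sets, 1069 (1.96%) were called. The signals of the 2 groups did not overlap in 4507 genes (22.8%), and these include every called gene. A mean signal of at least 100 units in a group was reached by 264 of those higher and 280 of those lower, some of them only in the group where the gene was high. Of all 19775 genes, 11139 reached it. Calls were thus more frequent among bright genes, and the 2.86% set beside the lists below is not matched to their signals.

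The number of calls rests on the spread borrowed from the other arrays. With limma fitted to the 6 arrays alone, no gene was called in either direction, although 1141 genes were higher and 1034 lower at an unadjusted p under 0.05. When probe sets under 100 units in both groups were also left out of that fit, a setting chosen after seeing the data, 246 genes were called higher and 270 lower, and of these 183 and 215 were among the calls given above. Leaving out single arrays of the comparison gave 150 to 216 genes higher and 181 to 218 lower. The number higher was 150 without siSTAT3 replicate 2, 165 without siNEG replicate 3 and 168 without siSTAT3 replicate 1, and the number lower was 181 without siSTAT3 replicate 2. Replicate 3 of the siNEG cells was the lowest control array in 163 of the 277 higher genes, and replicate 3 of the siSTAT3 cells was the lowest of its group in 141 of them. Over the 289 lower genes the highest siSTAT3 array was replicate 1, 2 and 3 in 101, 74 and 114 genes.

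**Figure D2:**
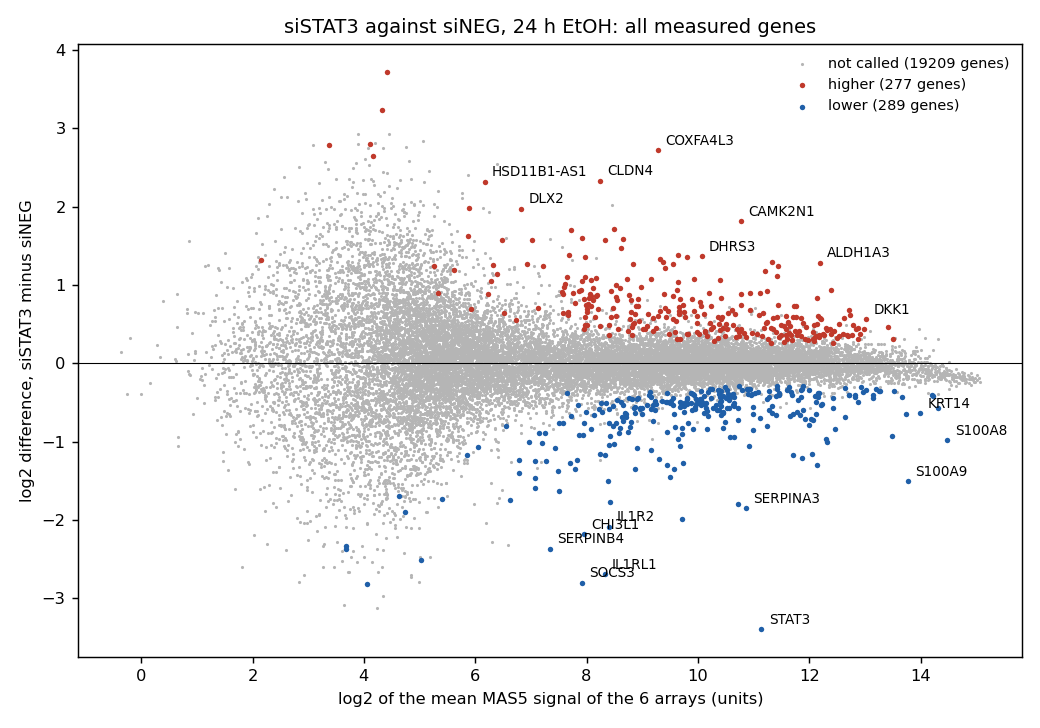
Log2 difference of every measured gene (siSTAT3 minus siNEG, 24 h EtOH) against the log2 of its mean signal over the 6 arrays; red, 277 genes called higher; blue, 289 genes called lower; gray, not called. STAT3 (-3.39) is the lowest of the called genes with at least 100 units in a group, and the scatter of genes that were not called widens toward low signals.

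Upstream of STAT3, LIF, IL6 and OSMR were called. None of the other 8 measured JAK and STAT genes was called: JAK1, the kinase bound to the shared IL6 receptor chain, read 2974 and 3017 units in siNEG and siSTAT3 cells, TYK2 704 and 585, and STAT6 2254 and 2301. Of 16 measured ligands and receptors of the IL6 family and related cytokines, LIF was called higher and IL6 and OSMR lower, 18.8% of the list beside 2.86% of all genes, and the list's median difference was -0.10 beside 0.01 for all genes.

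LIF, a ligand that signals through gp130 and STAT3, gave 148, 154 and 122 units on the siNEG arrays and 391, 380 and 318 units on the siSTAT3 arrays. All siSTAT3 arrays were far above every control array. The log2 difference was 1.36 (SE 0.15, adjusted p = 7.098e-05). IL6, the ligand that gives the family its name, was weakly expressed, at 194, 191 and 176 units with siNEG and 107, 46.7 and 96.4 units with siSTAT3. It fell by 1.25 on the log2 scale (SE 0.27, adjusted p = 0.0214), and that call was lost in 4 of the 6 fits that left out an array (adjusted p = 0.0949 without siSTAT3 replicate 2). OSMR, the receptor chain for oncostatin M, was abundant and fell from 4543 ± 210 to 3010 ± 125 units (log2 -0.59, SE 0.06, adjusted p = 5.497e-05). IL6ST, which encodes gp130, read 7591 and 6582 units and LIFR 874 and 603 units, and neither was called (adjusted p = 0.319 and 0.091).

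SOCS3 was the single member called among 16 measured inhibitors of STAT signaling, 6.25% of the list beside 2.86% of all genes. Its signals were 446, 370 and 428 units in siNEG cells and 127, 33.5 and 48.4 units in siSTAT3 cells. Replicate 1 was the highest siSTAT3 array and still far below every control array. The log2 difference was -2.81 (SE 0.34, adjusted p = 0.0001685), the largest fall after STAT3 among the named genes. Of its 4 probe sets 2 were called, and their log2 differences ran from -2.81 to 0.14. SOCS2 (2017 and 2052 units), the SUMO ligases of the PIAS group and the phosphatases PTPN1, PTPN2, PTPN6 and PTPN11 were not called. The median of the inhibitors was 0.05.

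Of 28 measured genes that are widely cited as STAT3 targets, 10 were called lower (SOCS3, FOS, CEBPD, MUC1, TNFRSF1A, ETS2, NNMT, TNFAIP6, IL4R and OSMR), CCND1 was called higher, and the median difference was -0.30. This is 39.3% of the list beside 2.86% of all genes, and 23 of the 28 differences were below 0. All 28 had a mean of at least 100 units in a group, where calls were more frequent. The list was written from general knowledge with earlier results of these data known, so its direction is not independent evidence.

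ETS2, a transcription factor of the ETS family, was among the 15 largest falls of called genes with at least 100 units in a group. It read 2684, 2393 and 2812 units with siNEG and 859, 735 and 673 units with siSTAT3, 3.49-fold lower (log2 -1.80, SE 0.12, adjusted p = 4.052e-07). FOS, the AP-1 subunit, went from 1057, 1054 and 1071 to 526, 598 and 505 units. Both groups were tight and far apart (log2 -0.97, SE 0.11, adjusted p = 8.316e-05). CEBPD, a factor of the acute-phase response, fell from 5214 ± 163 to 3198 ± 104 units (log2 -0.71, SE 0.07, adjusted p = 2.591e-05). TNFAIP6, which encodes a secreted hyaluronan-binding protein, fell from 273 ± 29.7 to 90.1 ± 24.2 units (log2 -1.63, adjusted p = 0.00211). NNMT, the nicotinamide methyltransferase, read 16570 and 10610 units (log2 -0.64, adjusted p = 0.0001685).

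Other genes of this list did not pass the test. MYC read 9644 and 8583 units (log2 -0.17, adjusted p = 0.511), BIRC5 3651 and 3707 units, VEGFA 3531 and 3952 units, and MCL1, a survival protein, 14580 and 12100 units (adjusted p = 0.16). CCND1, the G1 cyclin, moved against the rest, from 2182 ± 240 to 3273 ± 333 units (log2 0.59, SE 0.10, adjusted p = 0.003372). MUC1, the epithelial mucin, fell by 0.43 on the log2 scale (SE 0.09, adjusted p = 0.01518), a call lost in 4 of the 6 fits with an array left out (adjusted p = 0.0804 without siNEG replicate 1).

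Acute-phase proteins, the secreted proteins that liver and epithelia make in inflammation, mostly gave low signals in these cells. Of 18 measured, 4 had a mean of at least 100 units in a group, and the median difference was -0.59. SERPINA3, the antichymotrypsin, SERPINA1, the antitrypsin, and PTX3, a soluble pattern receptor, were called lower, and STEAP4, a metalloreductase, higher. These are 22.2% of the list, beside 2.86% of all genes. SERPINA3 read 2644, 2646 and 3494 units with siNEG and 799, 780 and 834 units with siSTAT3. Each siSTAT3 array was far below each control array (log2 -1.85, SE 0.11, adjusted p = 1.173e-07). SERPINA1 fell from 2119 ± 426 to 1267 ± 108 units (log2 -0.73, SE 0.14, adjusted p = 0.007181). PTX3 fell from 1675 ± 85.8 to 1058 ± 112 units, and STEAP4 rose from 52.6 ± 11.6 to 114 ± 18.3 units. PTX3 lost its call with any of the 6 arrays left out (adjusted p up to 0.155, without siSTAT3 replicate 2) and STEAP4 in 5 of these fits (up to 0.151, without siNEG replicate 3).

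Several complement proteases fell. Of 15 measured components and regulators, 5 were called lower (C1R, C1S, CFB, CFI and CD46) and none higher, with a median of -0.12. The calls made up 33.3% of the list, beside 2.86% of all genes. C1R and C1S encode the proteases of the first complement complex and stand beside each other on chromosome 12. C1R read 1044, 1152 and 1095 units with siNEG and 473, 357 and 470 units with siSTAT3. C1S read 642, 651 and 712 units with siNEG and 264, 222 and 305 units with siSTAT3. Both fell by 1.35 on the log2 scale (SE 0.12 and 0.14, adjusted p = 3.068e-06 and 2.299e-05), and neither gene's groups came near to overlapping. CFI, the protease that cuts C3b and C4b, fell from 883 ± 80.1 to 377 ± 15.8 units (log2 -1.22, SE 0.08, adjusted p = 4.052e-07), and CFB, the protease of the alternative pathway, from 450 ± 69.3 to 198 ± 9.99 units (log2 -1.17, SE 0.14, adjusted p = 0.0001103). C3, the precursor of the C3b that CFI cuts, read 7817 and 7442 units (log2 -0.07, adjusted p = 0.84), and the regulators CD55 and CD59 were not called.

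Reference promoters were searched for the letters that STAT dimers are known to bind, TTCCNGGAA and the looser TTCNNNGAA. Each reads the same on both strands, and every TTCCNGGAA is also a TTCNNNGAA. The windows run from 250 bases before to 50 after an annotated start in GRCh38.p14 (RefSeq), 1 window per start, and 229 of the 289 lower genes and 207 of the 277 higher genes had at least 1. TTCCNGGAA was in 13 of 377 windows of lower genes (3.45%), 4 of 328 windows of higher genes (1.22%) and 1.16% of the 21490 windows of all measured genes. For TTCNNNGAA the shares were 9.28%, 7.62% and 6.8%. Among genes changed by at least 2-fold, TTCCNGGAA was in 2 of 54 windows of lower genes (3.7%) and 2 of 58 windows of higher genes (3.45%), and TTCNNNGAA in 11.1% and 10.3%. No window of the 15 largest falls held either. The windows of C1R, CFB and STEAP4 are shown because these 3 complement and acute-phase genes hold the stricter letters and moved in opposite directions. Capitals mark the match, which begins 86 bases before the start in C1R, 92 in CFB and 96 in STEAP4. They lie at chr12:7091844-7092143 (minus strand), chr6:31945845-31946144 (plus strand) and chr7:88306845-88307144 (minus strand).
C1R: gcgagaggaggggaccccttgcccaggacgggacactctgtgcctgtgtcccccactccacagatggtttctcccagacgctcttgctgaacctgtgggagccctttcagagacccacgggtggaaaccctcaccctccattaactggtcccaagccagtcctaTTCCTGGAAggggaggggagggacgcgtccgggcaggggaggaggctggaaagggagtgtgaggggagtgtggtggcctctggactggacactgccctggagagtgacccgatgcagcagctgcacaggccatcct
CFB: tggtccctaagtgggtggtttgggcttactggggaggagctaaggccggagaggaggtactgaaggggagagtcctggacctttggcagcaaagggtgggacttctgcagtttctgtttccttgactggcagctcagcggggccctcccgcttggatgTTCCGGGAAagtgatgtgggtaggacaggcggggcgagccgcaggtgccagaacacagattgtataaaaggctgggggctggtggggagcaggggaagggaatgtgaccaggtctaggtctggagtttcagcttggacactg
STEAP4: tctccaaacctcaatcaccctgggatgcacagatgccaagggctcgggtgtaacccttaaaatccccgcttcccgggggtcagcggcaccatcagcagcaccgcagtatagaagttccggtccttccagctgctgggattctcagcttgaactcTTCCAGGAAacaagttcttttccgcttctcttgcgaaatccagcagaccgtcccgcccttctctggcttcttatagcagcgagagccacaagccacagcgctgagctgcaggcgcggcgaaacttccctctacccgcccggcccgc
A match describes these letters in the reference and is not a shown binding site, and a window without one says nothing about STAT3 elsewhere near the gene.

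The 5 receptor genes of the IL1 family that were listed here (IL1RL1, IL1R2, IL1R1, IL18R1 and IL1RAP) were all called lower. The list does not hold every receptor of the family. They belong to a list of 26 measured IL1 and IL20 family genes, of which 26.9% were called, beside 2.86% of all genes. In this list the ligands IL1B and IL18 were called higher and the IL20 family receptors were not called. Of the differences, 14 were above 0 and 12 below, and the median was 0.06. IL1RL1, the receptor for IL33, read 555, 466 and 633 units with siNEG and 127, 50.8 and 93.8 units with siSTAT3. The highest siSTAT3 array was far under the lowest control (log2 -2.69, SE 0.26, adjusted p = 1.687e-05). IL1R2, the decoy receptor for IL1, read 527, 553 and 566 units with siNEG and 137, 114 and 137 units with siSTAT3 (log2 -2.09, SE 0.17, adjusted p = 2.412e-06). Both groups were tight for this gene, which fell 4.25-fold.

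IL1R1, the signaling receptor for IL1, fell from 995 ± 92.8 to 403 ± 18.3 units (log2 -1.30, SE 0.09, adjusted p = 4.052e-07). IL18R1 fell from 155 ± 18.3 to 66.1 ± 11.6 units (log2 -1.24, SE 0.14, adjusted p = 5.888e-05), and the shared chain IL1RAP from 1580 to 1140 units (log2 -0.48, adjusted p = 0.0406). The IL1RAP call was not followed in the fits with an array left out. In the RefSeq order of measured genes (GRCh38.p14) IL1R2 and IL1R1 are neighbors, and so are IL1RL1 and IL18R1. Among all 19708 pairs of neighboring measured genes, both were called lower in 16 pairs and both higher in 14.

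Among cytokines and chemokines the calls went both ways: of 27 measured, IL1B, LIF, IL18 and CCL28 were higher and IL6 and CXCL2 lower (22.2%, beside 2.86% of all genes). IL1B, the main secreted ligand of IL1R1, read 1847, 1751 and 1400 units with siNEG and 3295, 3188 and 2978 units with siSTAT3. It rose 1.90-fold (log2 0.93, SE 0.12, adjusted p = 0.0003603) while its receptors fell. CXCL2, a neutrophil chemokine, fell from 2610 ± 189 to 1441 ± 93.8 units (log2 -0.86, adjusted p = 0.01246), a call lost without siNEG replicate 3 (adjusted p = 0.0613) and without siSTAT3 replicate 3. CXCL1 and CCL20 were not called, at 5847 and 5719 units and 3579 and 3519 units. CXCL8, another neutrophil chemokine, read 2260 and 3482 units with a wide spread (adjusted p = 0.298).

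S100A8 and S100A9, the subunits of calprotectin, were bright genes that fell. S100A9 read 20408, 20586 and 20946 units with siNEG and 7653, 7030 and 7150 units with siSTAT3 (log2 -1.51, SE 0.11, adjusted p = 6.202e-07). S100A8 fell from 30434 ± 1013 to 15376 ± 391.9 units (log2 -0.98, SE 0.15, adjusted p = 0.001098). S100P, a relative, rose from 3694 ± 622 to 7023 ± 545 units (log2 0.94, SE 0.14, adjusted p = 0.0009092). The other 17 measured S100 and antimicrobial genes were not called, S100A7 among them (149 and 42.7 units, adjusted p = 0.0792). Calls made up 15% of the list, beside 2.86% of all genes.

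SERPINB3 and SERPINB4, adjacent genes for protease inhibitors known as the squamous cell carcinoma antigens, both fell. Their sequences are nearly identical, so the probe sets may read both. SERPINB3 read 1544, 1365 and 960 units with siNEG and 725, 207 and 216 units with siSTAT3 (log2 -1.99, SE 0.33, adjusted p = 0.002794). SERPINB4 read 373, 226 and 177 units with siNEG and 144, 24.0 and 31.4 units with siSTAT3 (log2 -2.37, SE 0.52, adjusted p = 0.02256). In both genes siSTAT3 replicate 1 was several times above the other siSTAT3 arrays. The groups did not overlap, as in every called gene. SERPINB4 lost its call in 4 of the 6 fits with an array left out (adjusted p up to 0.134, without siSTAT3 replicate 2). The remaining 8 measured members of the clade were not called. Calls made up 20% of this list, beside 2.86% of all genes.

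The remaining genes among the 15 largest falls had varied roles. CHI3L1, a chitinase-like glycoprotein of inflamed tissue, read 410, 322 and 491 units with siNEG and 84.8, 95.1 and 86.2 units with siSTAT3 (log2 -2.18, SE 0.17, adjusted p = 9.67e-07). DLL1, a Notch ligand, fell from 152 ± 8.56 to 45.6 ± 8.08 units (log2 -1.75, adjusted p = 0.003169). LTB4R, the receptor for leukotriene B4, fell from 497 ± 50.7 to 174 ± 9.79 units (log2 -1.51, adjusted p = 2.257e-06). SHISAL1 (also known as KIAA1644) fell 3.42-fold and LBH, a transcriptional cofactor, 3.02-fold. Groups that do not overlap were a condition for entry among the 15 and were seen in every called gene.

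Interferon-stimulated genes did not move together. Of 34 measured, 4 were lower and 2 were higher (17.6%, beside 2.86% of all genes), and the median was 0.07. IFITM1, which blocks virus entry, fell from 5861 ± 130 to 2620 ± 88.9 units (log2 -1.16, SE 0.08, adjusted p = 3.683e-07), and its neighbors IFITM2 and IFITM3 were called lower as well. IFI44 fell from 512 ± 71.7 to 326 ± 41.9 units beside its neighbor IFI44L. IFIT2 rose from 159 ± 13.8 to 245 ± 18.2 units and CXCL11, a T cell chemokine, from 118 ± 47.6 to 293 ± 38.8 units (log2 1.38, SE 0.22, adjusted p = 0.002487). ISG15, OAS1 and TAP1 were not called. None of 15 measured genes for sensors of double-stranded RNA and for RNA interference was called, and their largest difference was -0.50. With 2.86% of all genes called, so short a list can hold no call at that share.

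On the side of the rises, COXFA4L3 led the called genes with at least 100 units in a group. This gene, also known as C15orf48, encodes a small mitochondrial protein related to a subunit of cytochrome oxidase. Its signals were 164, 194 and 139 units with siNEG and 1128, 1190 and 944 units with siSTAT3, 6.6-fold higher (log2 2.72, SE 0.26, adjusted p = 1.081e-05). CAMK2N1, an inhibitor of the kinase CaMKII, read 793, 811 and 721 units with siNEG and 2902, 2681 and 2604 units with siSTAT3. All siSTAT3 arrays were over 3 times any control, and the 3 probe sets of this gene were all called (log2 1.82, SE 0.11, adjusted p = 2.052e-07).

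Genes of epithelial junctions rose more often than they fell: of 22 measured, CLDN4, CGN, OCLN, CRB3, JUP and CDH1 were higher and DSC3 lower, with a median of 0.18. Calls made up 31.8% of this list, beside 2.86% of all genes. CLDN4, a claudin of tight junctions, read 129, 117 and 62.4 units with siNEG and 556, 556 and 388 units with siSTAT3 (log2 2.33, SE 0.43, adjusted p = 0.006403). OCLN, which encodes occludin, rose from 2080 ± 342 to 3469 ± 395 units (log2 0.75, SE 0.14, adjusted p = 0.007575). CGN, the linker cingulin, rose from 180 ± 46.2 to 313 ± 8.41 units. CDH1, E-cadherin, was abundant and rose from 6861 to 9291 units (log2 0.44, adjusted p = 0.0136), and JUP from 1801 to 2804 units (log2 0.64). CRB3, a polarity protein, lost its call in 5 of the 6 fits with an array left out (adjusted p up to 0.156, without siNEG replicate 3). EPCAM, DSP and CLDN1 were not called.

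Of 22 measured transcription factors of epithelial fate, KLF4, ID3, TFAP2A and SOX4 were higher (18.2%, beside 2.86% of all genes), none was lower, and the median was 0.32. KLF4, a factor of barrier formation, rose from 626 ± 83.1 to 1315 ± 110 units (log2 1.08, SE 0.11, adjusted p = 4.001e-05). ID3 lost its call in 3 of the 6 fits with an array left out (adjusted p up to 0.0704, without siNEG replicate 3), and TFAP2A without siNEG replicate 3 (0.0508). DLX2, a homeobox factor outside this list, rose from 50.9 ± 28.1 to 176 ± 24.5 units (log2 1.97, adjusted p = 0.001843). The other large rises began at low signals: PSCA, a surface antigen, went from 203 ± 40.5 to 604 ± 69.9 units, VSTM2L from 122 ± 23.3 to 364 ± 12.2, ST6GALNAC5, a sialyltransferase, from 65.7 ± 17.8 to 194 ± 44.3, and the noncoding RNAs SFTA1P from 101 ± 24.5 to 321 ± 29.4, HSD11B1-AS1 from 25.8 ± 11.6 to 118 ± 14.1 and MIR1-1HG from 45.6 ± 13.5 to 134 ± 27.6. HSD11B1-AS1 had a log2 difference of 2.32, or 1.395 with 32 units added to each signal, and lost its call without siNEG replicate 3 (adjusted p = 0.0533) and MIR1-1HG in 4 of the 6 fits (up to 0.083, without siNEG replicate 1).

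Keratins and cornified envelope genes shifted in part. KRT14, the keratin of basal cells, fell from 19925 ± 674 to 12830 ± 275 units (log2 -0.63, SE 0.09, adjusted p = 0.0004532), while its partner KRT5 was not called (17560 and 14880 units, adjusted p = 0.371). KRT8, a luminal keratin, rose from 5934 ± 688 to 8288 ± 350 units (log2 0.49, adjusted p = 0.01545) and KRT15 from 5109 ± 528 to 7587 ± 72.2 units (log2 0.58, adjusted p = 0.01736). These calls were lost in 3 and 5 of the 6 fits with an array left out (adjusted p up to 0.088, without siNEG replicate 3, and up to 0.0805, without siNEG replicate 1). SPRR1B, a precursor of the cornified envelope, rose from 1862, 1920 and 1224 units to 4075, 3890 and 3666 units (log2 1.24, SE 0.18, adjusted p = 0.0006959). SPRR1A (373 ± 121 to 903 ± 88.5 units) and SPRR2B (208 ± 41.9 to 579 ± 109 units) also rose; these family members are alike in sequence, and the SPRR1A call was lost in 3 fits (adjusted p up to 0.0824, without siNEG replicate 3). Only SPRR1A and SPRR1B were called among 25 measured genes of epidermal differentiation (8%, beside 2.86% of all genes), whose median was 0.44, and IVL and FLG stayed under 100 units.

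Several retinoid genes rose. Of 20 measured genes of prostaglandin, retinoid and arylhydrocarbon metabolism, 6 were higher (RARRES1, DHRS3, ALDH1A3, CRABP2, PTGES and TIPARP) and CYP1B1 was lower. This is 35% of the list beside 2.86% of all genes, with a median of 0.22. ALDH1A3, an enzyme that makes retinoic acid, read 3230, 3092 and 1943 units with siNEG and 7249, 6694 and 5789 units with siSTAT3 (log2 1.29, SE 0.16, adjusted p = 0.0002509). DHRS3, an enzyme that turns retinal back into retinol, read 614, 647 and 541 units with siNEG and 1538, 1691 and 1421 units with siSTAT3 (log2 1.37, SE 0.10, adjusted p = 5.443e-07). RARRES1, named for its response to retinoid receptors, rose from 169 ± 32.4 to 555 ± 92.6 units (log2 1.72, SE 0.21, adjusted p = 0.0001606). CRABP2, the carrier of retinoic acid, rose from 250 ± 53.5 to 490 ± 28.9 units, a call lost in 2 of the 6 fits (adjusted p up to 0.0786, without siNEG replicate 3). PTGES, a prostaglandin E synthase, read 9202 and 12680 units (log2 0.46, adjusted p = 0.0112), and PTGS2 was not called.

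Of 27 measured genes of TGF-beta, activin and BMP signals, INHBA and FST were higher and LTBP1 was lower (11.1%, beside 2.86% of all genes). In this list 13 differences were above 0 and 14 below, with a median of -0.0022. INHBA, the activin A subunit, read 170, 159 and 158 units with siNEG and 454, 532 and 471 units with siSTAT3 (log2 1.58, SE 0.09, adjusted p = 1.173e-07). FST, which encodes the activin antagonist follistatin, rose from 405 ± 176 to 919 ± 88.0 units (log2 1.29, SE 0.23, adjusted p = 0.005642), and all 3 of its probe sets were called. IGFBP3, a carrier of insulin-like growth factors, rose from 451 ± 124 to 1156 ± 215 units (log2 1.38, SE 0.17, adjusted p = 0.0001834). DKK1, a Wnt antagonist, rose from 6732 ± 497 to 9922 ± 160 units while SFRP1, another one, fell from 10438 ± 84.2 to 7653 ± 416 units (adjusted p = 0.00179 and 0.002582).

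The immediate early genes split: of 21 measured, KLF4, CCN1, CCN2, KLF6 and IER3 were higher and FOS and ZFP36 lower, 33.3% of the list beside 2.86% of all genes. CCN2, a matricellular protein, rose from 802 ± 86.9 to 1335 ± 111 units (log2 0.74, SE 0.09, adjusted p = 0.0001666), and CCN1 from 3259 ± 656 to 5720 ± 312 units. EGR1 was not called (3861 and 3355 units). Of 22 measured mesenchymal genes, TAGLN and TPM1 were higher and SNAI1 lower (13.6%). TAGLN, an actin-binding protein, rose from 411 ± 51.8 to 955 ± 37.4 units (log2 1.22, SE 0.14, adjusted p = 8.316e-05). TPM1, a tropomyosin, rose from 3937 ± 278 to 5012 ± 310 units (log2 0.35, adjusted p = 0.02689), a call lost in 4 of the 6 fits with an array left out (adjusted p up to 0.135, without siNEG replicate 3). SNAI1, a repressor of E-cadherin, was under 100 units in all arrays: 56.6, 61.9 and 41.2 units with siNEG and 25.7, 4.74 and 6.33 units with siSTAT3 (log2 -2.52, SE 0.61, adjusted p = 0.041). Its call was lost in 5 of the 6 fits with an array left out (adjusted p up to 0.204, without siSTAT3 replicate 2). Over all settings its log2 difference ran from -3.26, without siSTAT3 replicate 1, to -0.97, with 32 units added to each signal. VIM, FN1, ZEB1 and TWIST1 were not called.

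Of 44 measured cell cycle and replication genes, 5 (11.4%, beside 2.86% of all genes) were called: CCND1, CCND2 and CCNE2 were higher and MCM2 and TYMS lower, and the median was -0.005. CCND2 rose from 3741 ± 98.3 to 5607 ± 177 units (log2 0.58, SE 0.08, adjusted p = 0.0005077), while the calls of CCNE2 (adjusted p up to 0.117, without siSTAT3 replicate 1) and TYMS (up to 0.129, without siSTAT3 replicate 3) were lost in 4 and 6 of the fits with an array left out. MKI67, CCNB1 and PCNA were not called. None was called among 25 measured genes of the BCL2 family and cell death, 23 of the tricarboxylic acid cycle and respiratory chain, 23 of sterol and fatty acid synthesis, or 16 of the circadian clock, whose medians were -0.02, -0.08, 0.11 and 0.06. With 2.86% of all genes called, lists this short can hold no call at that share. An absent call therefore does not show that they were unchanged. TSC22D3, a glucocorticoid-induced gene, rose from 1970 ± 271 to 2799 ± 205 units (log2 0.51, SE 0.13, adjusted p = 0.04891). That call was lost in 5 of the 6 fits with an array left out (adjusted p up to 0.222, without siNEG replicate 1). The TSC22D3 call rests on 1 of its 3 probe sets. Another read 304 and 316 units in siNEG and siSTAT3 cells (log2 0.11, adjusted p = 0.9635). SGK1, another glucocorticoid-induced gene, fell from 2753 ± 282 to 1687 ± 22.0 units (log2 -0.70, adjusted p = 0.0003956).

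Other lists held a few calls each. The share called ran from 5% (NRF2 targets) to 23.8% (glucocorticoid-responsive genes), beside 2.86% of all genes. It was 6.25% for glycolysis and hypoxia and 7.69% for endoplasmic reticulum stress. Shares as low as these and that of the NRF2 targets are not read as results about the lists. Of 29 measured matrix proteases and inhibitors, TIMP3, PLAU and PLAUR were higher and ADAM12 and ADAM17 lower (median 0.10). ADAM12, a membrane metalloprotease, fell from 1472 ± 64.2 to 826 ± 35.2 units (log2 -0.83, SE 0.09, adjusted p = 3.343e-05). Of 25 integrins, laminins and matrix glycoproteins, LAMB3 and THBS1 were higher and LAMB1 and VCAN lower (median -0.09). LAMB3, a chain of the epithelial laminin, rose from 3643 ± 300.0 to 5514 ± 145 units. The THBS1 call rests on 1 of its 7 probe sets. Another read 2190 and 2826 units in siNEG and siSTAT3 cells (log2 0.38, adjusted p = 0.3167). Of 26 genes of the EGF family and its ERK feedback, TGFA, DUSP10 and PHLDA1 were higher and ERRFI1 lower (median 0.19), and of 31 Notch and Wnt genes HES2 and DKK1 were higher and JAG1, DLL1 and SFRP1 lower (median 0.12). The p53 list had GADD45A and TP53I3 higher and SESN1 lower of 21 (median 0.02), the NF-kB list IL1B higher and SOD2 and CXCL2 lower of 23 (median -0.10), and the AP-1 family MAFF higher and FOS lower of 12 (median 0.02). Of 32 genes of glycolysis and hypoxia, ADM was higher and CA12 lower (median -0.02). CA12, a carbonic anhydrase, fell from 3090 ± 266 to 1768 ± 97.8 units (log2 -0.80, SE 0.09, adjusted p = 4.67e-05). TXNRD1 was higher among 20 NRF2 targets, SHMT2 and EDEM1 were lower among 26 genes of endoplasmic reticulum stress, and KLF4 was higher and MUC1 lower among 14 mammary and stem cell surface markers. Of 21 glucocorticoid-responsive genes 1 was higher and 4 were lower (median -0.04). The calls of TIMP3 and DUSP10 were lost with any of the 6 arrays left out, and those of TXNRD1, SESN1 and SHMT2 in 5 of the 6 fits. TGFA lost its call in 4 of them, ERRFI1 and SOD2 in 3, LAMB1, VCAN and EDEM1 in 2, and PLAU in 1, without siNEG replicate 3.

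**Figure D3:**
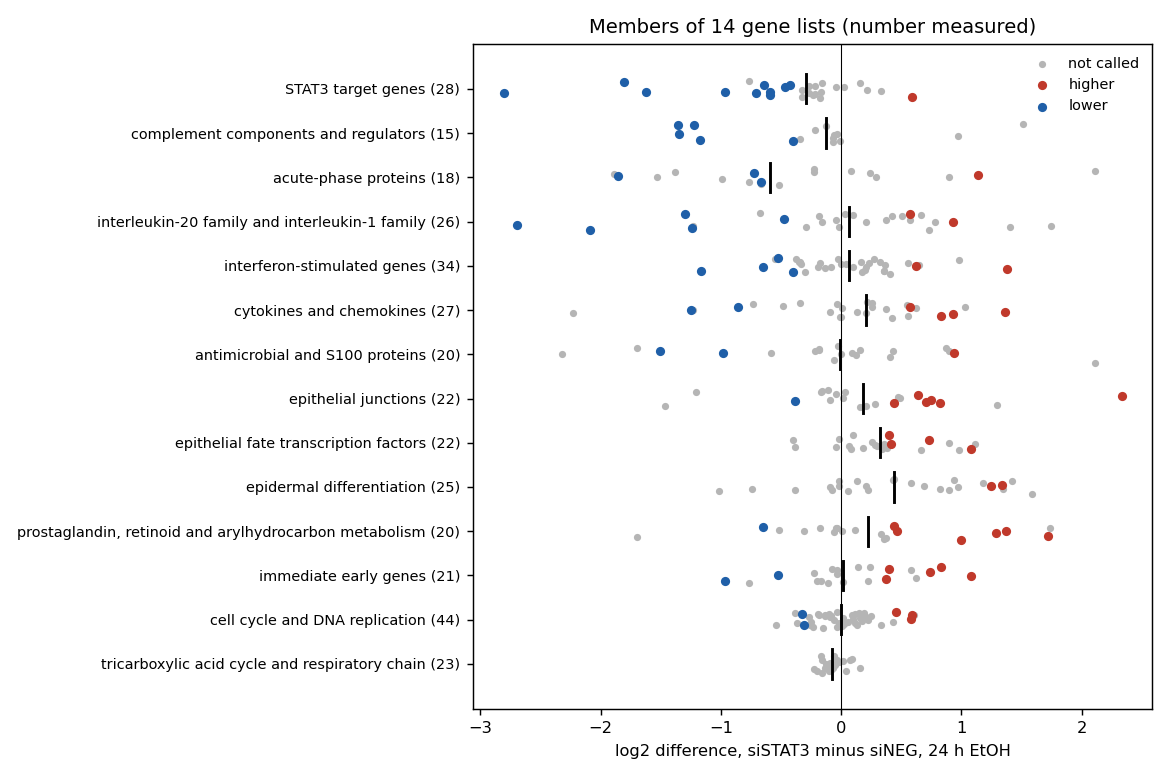
Log2 difference (siSTAT3 minus siNEG, 24 h EtOH) of each measured member of 14 gene lists, with the number measured in parentheses; red, called higher; blue, called lower; gray, not called; black bar, list median. Called members of the complement list all lie below 0 (5 of 15), and the respiratory chain list has none called, beside 2.86% called among all genes. Some members that were not called and lie far from 0 had signals under 100 units.

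Markers of other cell types were followed, since in RNA from a whole culture fewer cells of a type and less RNA per cell cannot be told apart. The share called was 40% for fibroblast, 25% for basal and 16.7% for myoepithelial markers, beside 2.86% of all genes. It was 12.5% for immune, 8.33% for luminal and 0% for endothelial markers. In lists this short, a single call or none is not read as a result about a cell type. Of 10 measured fibroblast markers, DCN, COL6A3 and POSTN were lower and COL1A1 higher, and the summed signal of the 10 was 8122 to 8546 units on siNEG arrays and 5033 to 5118 units on siSTAT3 arrays. DCN, the proteoglycan decorin, made up most of it and fell from 5211 ± 96.2 to 2251 ± 32.3 units (log2 -1.21, SE 0.09, adjusted p = 8.083e-07). The COL1A1 call rests on 1 of its 5 probe sets. Another read 189 and 190 units in siNEG and siSTAT3 cells (log2 0.02, adjusted p = 0.994). The defining fibroblast markers COL1A2, COL3A1, LUM, PDGFRA and PDGFRB were under 100 units in both groups. Of 8 immune markers CD14 alone was called, lower, from 845 ± 73.3 to 595 ± 21.2 units; PTPRC, present on all leukocytes, read 29.2 and 38.2 units, and the sum went from 1116 to 1317 units with siNEG to 967 to 978 with siSTAT3. None of 8 endothelial markers was called, and CDH5 and VWF were under 12 units. Of 12 luminal markers KRT8 was called, and the sum was 22244 to 25396 units with siNEG and 26240 to 28219 with siSTAT3. Of 8 basal markers, KRT14 was lower and LAMB3 higher, and the sum was 71829 to 80081 and 64499 to 68875 units. Of 6 myoepithelial markers TAGLN was called, and the sum was 1145 to 1221 and 1709 to 1824 units. TAGLN alone went from 411 to 955 units, while 4 of the 6 differences were below 0 and the median was -0.22. The part of such shifts in the gene lists was not tested.

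The same siRNAs were compared after 4 h in EtOH, on 3 arrays per group. At that time 847 genes (4.28%) were called, and 342 of them were also called at 24 h in the same direction, 60.4% of the 24 h calls and 40.4% of the 4 h calls. Of the genes higher at 24 h, 261 of 277 had a positive difference at 4 h, and of those lower, 278 of 289 a negative one. The same count over all measured genes is not given here, so these counts describe the called genes only. STAT3 differed by -3.61 at 4 h. IL1RL1 differed by -2.68 at 4 h, C1S by -1.35 and S100A9 by -1.48, beside -2.69, -1.35 and -1.51 at 24 h. COXFA4L3 differed by 1.21 at 4 h and CAMK2N1 by 0.94, beside 2.72 and 1.82 at 24 h, and neither change between the times passed the test (adjusted p = 0.33 and 0.115).

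A test of the change itself, the effect at 24 h minus that at 4 h, called 3 genes (0.0152% of those measured), and 1290 had an unadjusted p under 0.05. RARRES1 was one of them. It read 121 ± 7.34 and 74.6 ± 14.03 units in siNEG and siSTAT3 cells at 4 h, where the difference of -0.71 was not called (adjusted p = 0.0816), and 169 and 555 units at 24 h. The change was 2.43 on the log2 scale (SE 0.29, adjusted p = 0.009569). The other two genes, named after their values were seen, were TNFAIP3, an inhibitor of NF-kB signaling (0.76 at 4 h and -0.22 at 24 h, adjusted p of the change 0.0371), and ZNF439, whose signals were 21.7 and 4.06 units at 24 h.

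**Figure D4:**
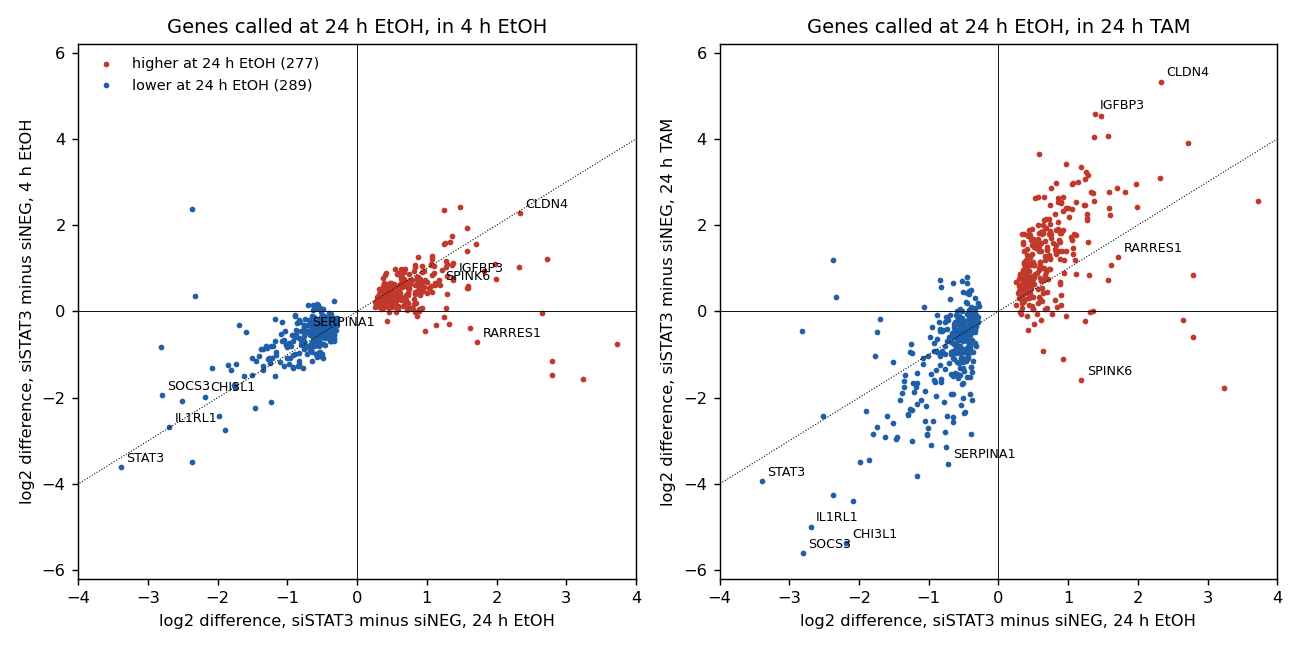
Log2 difference (siSTAT3 minus siNEG) at 4 h EtOH (left) and at 24 h TAM (right) against that at 24 h EtOH, for the genes called at 24 h EtOH; red, 277 higher; blue, 289 lower; dotted line, equal differences. RARRES1 lies at -0.71 at 4 h, and the medians of the red and blue genes with TAM are 1.11 and -0.72.

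With TAM for 24 h, when the ER-Src fusion is on, siSTAT3 (2 arrays) and siNEG (3 arrays) differed in 3260 genes (16.5%). Of the 566 genes called with EtOH, 442 (78.1%) were called with TAM in the same direction, 13.6% of the TAM calls. The median difference of the higher genes was 0.61 with EtOH and 1.11 with TAM, and that of the lower genes -0.57 and -0.72. Since these genes were chosen with EtOH, the medians describe them and were not tested. The effect with TAM differed from that with EtOH in 1169 genes (5.91%), 676 upward and 493 downward.

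In SOCS3 the effect with TAM minus that with EtOH was -2.80 (SE 0.51, adjusted p = 0.003165): siNEG cells read 415 ± 40.0 units with EtOH and 8055 ± 446 with TAM, siSTAT3 cells 69.8 ± 50.5 and 177 ± 92.2 (n = 2). CHI3L1 went the same way, with 408 ± 84.4 and 7911 ± 684 units in siNEG and 88.7 ± 5.62 and 193 ± 37.5 (n = 2) in siSTAT3 cells. CLDN4 differed the other way: siNEG cells read 103 ± 35.5 and 46.6 ± 30.8 units and siSTAT3 cells 500 ± 96.7 and 1565 ± 188 (n = 2). STAT3 itself was not called in this test (-0.54, adjusted p = 0.191), with siSTAT3 cells at 398 and 400 units and siNEG cells at 4125 and 6119.

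Of the 566 genes, 5 that were higher and 12 that were lower with EtOH were called in the opposite direction with TAM. SPINK6, a protease inhibitor, was higher with EtOH (29.9 ± 5.31 and 67.9 ± 9.69 units) and lower with TAM (468 ± 147 and 151 ± 34.1 units, n = 2). MUC1 differed by -0.43 with EtOH and 0.41 with TAM, IFI44 by -0.65 and 0.66, SFRP1 by -0.45 and 0.80, and POSTN by -0.83 and 0.57. TGFA, a ligand of the EGF receptor, differed by 0.42 and -0.44. The TGFA call with EtOH was lost in 4 of the 6 fits with an array left out (adjusted p up to 0.106, without siNEG replicate 1).

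**Figure D5:**
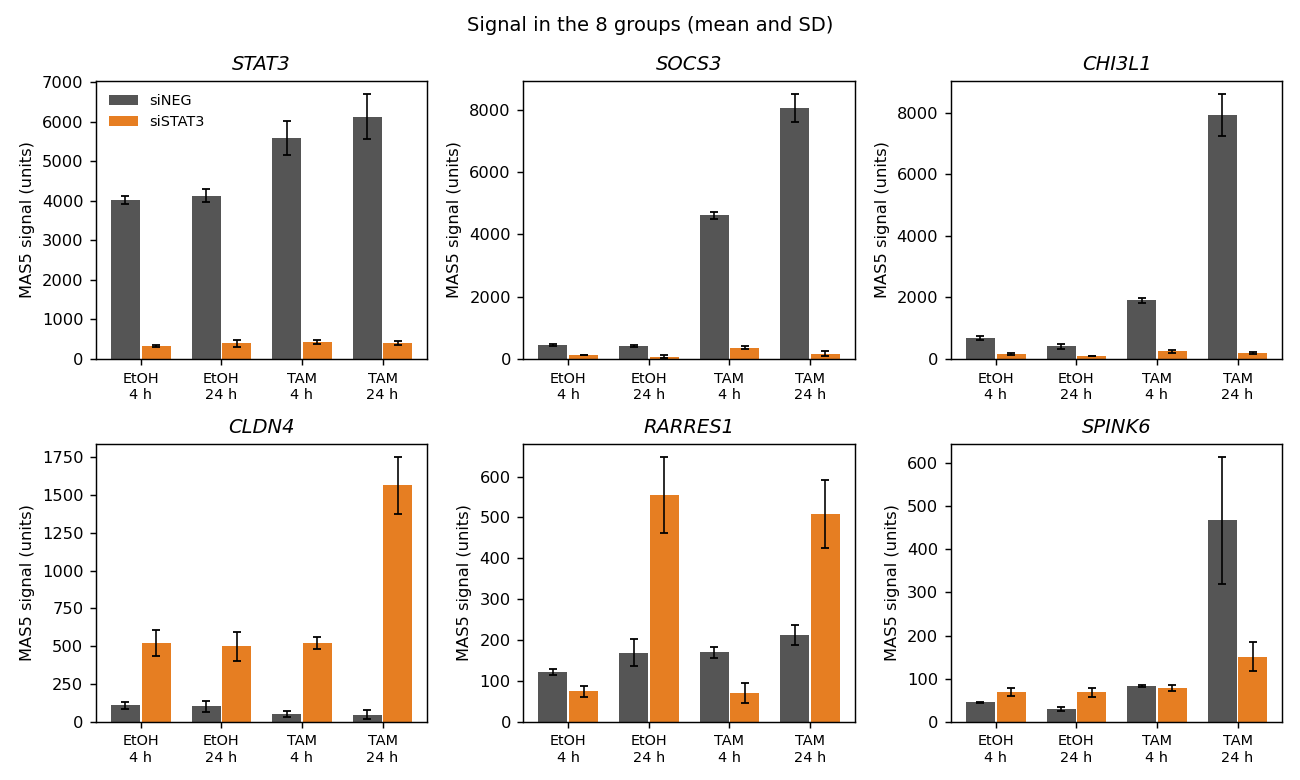
Mean MAS5 signal (units, linear axis from 0) of 6 genes in the 8 groups; bars, mean; lines, SD; n = 3 arrays except siSTAT3 TAM 24 h (n = 2). SOCS3 and CHI3L1 in siNEG cells reach 8055 and 7911 units with TAM at 24 h, and RARRES1 in siSTAT3 cells is high at 24 h and low at 4 h.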

How the data were processed

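RNA (100 ng, 15 amplification cycles, 3′ IVT Express kit) was hybridized to Affymetrix Human Genome U133 Plus 2.0 arrays. The authors deposited MAS5 intensity values, in which background correction, scaling and summary per probe set were already done. The values are linear, their trimmed mean (2% at each end) is 500 on each array, and they were taken as log2 with nothing added (smallest signal 0.0626). MAS5 subtracts mismatch signals, which makes low signals noisy: the median SE was 0.11 for genes with at least 100 units in a group and 0.65 for the rest. The number of arrays limits the precision.

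Samples were grouped by the series labels. Group means were estimated from the 23 arrays together with limma 3.58.1 in R 4.3.3 (15 residual and 1.27 prior degrees of freedom), with Benjamini-Hochberg adjustment over 54675 probe sets. The fit was tested on simulated data. The platform annotation gives 1 gene to 41097 probe sets, several to 1801 and none to 11777. Only the first kind entered gene results, and symbols were updated through RefSeq (GRCh38.p14). Where a gene had several probe sets, the brightest (mean log2 over all arrays) was taken.

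Named genes are STAT3, called JAK/STAT, IL6 family and inhibitor genes, and up to 4 called members per list. The 15 largest rises and falls of called genes (non-overlapping arrays, at least 100 units in a group) are also named. So are the 5 largest changes in each direction between conditions, among genes also called at 24 h in EtOH that passed this signal limit. Other list members are given by their counts, with examples. The comparison, the lists and these rules were chosen with earlier results of these data known. Some listed genes were not analysed here. Alternatives tried were the arrays in the fit, quantile normalization, median centring, a filter on low signals, an offset, any probe set of a gene, the study's limits, a replicate block and leaving out single arrays. One array of siSTAT3 cells with TAM at 24 h was not analysed here. Figures were drawn with matplotlib.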

Additional observations from a re-analysis of the deposited data

Results flagged for a closer look

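The siSTAT3 effect was compared between conditions by a test of the difference itself (limma, all 23 arrays). Between 24 h and 4 h in EtOH it differed in 3 genes, RARRES1 among them, whose effect at 24 h minus that at 4 h was 2.43 on the log2 scale. Between TAM and EtOH at 24 h it differed in 1169 genes. The following had the largest differences (TAM minus EtOH, log2) among those also called with EtOH at 24 h. A mean of at least 100 units in a group was also required. The siSTAT3 TAM group has 2 arrays.

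Downward differences were found for CHI3L1 (-3.19), SOCS3 (-2.80), SERPINA1 (-2.80), SPINK6 (-2.79) and ABCA1 (-2.64). SERPINA1 read 2119 ± 426 and 1267 ± 108 units with EtOH in siNEG and siSTAT3 cells and 19290 ± 830.0 and 1681 ± 247 units with TAM. ABCA1, a lipid exporter, read 79.7 ± 9.59 and 35.9 ± 9.72 units with EtOH and 1019 ± 178 and 71.8 ± 1.11 units with TAM, and its EtOH call was lost in 4 of the 6 fits with an array left out.

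Upward differences were found for IGFBP3 (3.19), KRT15 (3.07), SPRR2B (3.05), CLDN4 (2.99) and CXCL11 (2.67). IGFBP3 read 451 ± 124 and 1156 ± 215 units with EtOH and 217 ± 14.6 and 5162 ± 221 units with TAM. KRT15 read 5109 ± 528 and 7587 ± 72.2 units with EtOH and 647 ± 59.8 and 8094 ± 676 units with TAM.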

How the results depend on the processing

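No result changed direction. The genes higher and lower (277 and 289) numbered 482 and 501 with probe sets under 100 units left out, 112 and 135 at the study's limits, and 0 and 0 with the 6 arrays alone (1141 and 1034 at an unadjusted p under 0.05, limma). There the STAT3 difference of -3.39 had an adjusted p of 0.06129. Leaving out single arrays gave 150 to 216 genes higher, 181 to 218 lower and STAT3 differences of -3.56 to -3.26. The 3 genes that differed between 24 h and 4 h became 17 with the filter, 9 with an offset of 32 units, 5 with quantile normalization, 0 with only the arrays of that comparison, and 1 to 3 with single arrays left out (1 without siNEG replicate 3 and 1 without siSTAT3 replicate 3). The 1169 genes that differed between TAM and EtOH became 643 with only the arrays of that comparison and 930 to 1118 with single arrays left out. The cause was not tested.

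Same-numbered arrays of the groups correlated at 0.102, -0.011 and 0.024 in their deviations from the group means, 1 of 3 above 0.1, so the numbers were not taken to pair the arrays. Over all groups the median was 0.036 for same-numbered pairs (16 of 77 above 0.1) and -0.024 for others (17 of 154), and 14 of 23 arrays were closest to arrays of their own number, a hint from the data and not from the design. With the replicate block 253 genes were higher and 277 lower (242 and 266 of them shared), STAT3 differed by -3.39, 1 gene differed between the times and 1098 between TAM and EtOH. With it SNAI1 (adjusted p = 0.05428), DUSP10 (0.07129) and TXNRD1 (0.0624) lost their calls. Of 111 named genes besides STAT3, 33 lost the call with at least 1 array left out. With the offset the differences of ABCA1, HSD11B1-AS1, SNAI1 and SPINK6, all low in signal, shrank to -0.72, 1.395, -0.97 and 0.69. Low signals limit the precision: the median SE was 0.11 for genes with at least 100 units and 0.65 for the others.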

Other observations

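Of 13578 probe sets that the annotation gives no single gene, 134 were called between siSTAT3 and siNEG at 24 h in EtOH. They entered no count of genes.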
